A study of Homo sapiens with 16 samples.

Results

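The genes described here make and sense sterols and fatty acids: 31 genes, listed by symbol, among 35075 genes whose transcripts were quantified by RNA sequencing. The list was chosen with earlier results of these data known. The shares of all genes given beside its counts are therefore a description and not a test of the list. All 31 passed the filter on low counts, which kept 16787 genes for testing. They fall into 4 roles: 8 enzymes lead from acetyl-CoA to squalene, 10 turn squalene into sterols, 6 proteins sense or move sterols, and 7 enzymes make or modify fatty acids. The cells were HEK293, an established line from human embryonic kidney. They overexpressed the RNF43 frameshift mutant G659fs, the RNF43 frameshift mutant R117fs, wild-type RNF43 (WT) or, as the control, GFP, with 4 libraries in each group and 16 in all. RNF43 is a membrane-bound ubiquitin ligase that takes Wnt receptors off the cell surface, and by its title the series set out to read what a gene variant does from expression profiles. The cells keep their own RNF43 gene under the added copy. The labels do not state the vector, its promoter, how long after its introduction RNA was taken, or that replicates came from separate cultures. The p-values therefore reflect only how these samples vary, and that variation may be technical.

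Cells make cholesterol from acetyl-CoA through mevalonate, farnesyl diphosphate and squalene, and make fatty acids from the same acetyl-CoA after ACLY has released it from citrate. Both pathways are switched on by SREBP proteins, the products of SREBF1 and SREBF2, which wait in the endoplasmic reticulum bound to the escort protein SCAP. When membrane sterol is plentiful, INSIG1 and INSIG2 hold SCAP back. When sterol is scarce, SCAP carries SREBP to the Golgi, where proteases free the part that enters the nucleus and raises the transcription of most genes described here, INSIG1 and SREBF2 among them. HEK293 cells grown in serum can both take up cholesterol and make it.

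Expression is given as CPM, estimated reads per 1000000 after TMM scaling, with the values of replicates 1 to 4 in that order, and as mean ± SD with n = 4 in each group. The estimated counts summed to 29886062 to 44738520 per library in G659fs, 20364357 to 41161835 in R117fs, 32761360 to 46779570 in WT and 25441077 to 30937321 in GFP. RNF43 averaged 39391 ± 5415 CPM in G659fs, 68441 ± 27519 CPM in R117fs and 53346 ± 8058 CPM in WT, against 31.4 ± 15.4 CPM in GFP, so every library matched its label as overexpressing RNF43 or not. Within R117fs RNF43 was uneven, at 30191.3, 79637.5, 94568.5 and 69367.7 CPM, with replicate 1 the lowest. Whether the RNF43 level of a library bears on the genes described here was not tested. R117fs replicate 4 stood apart from all others: log2 CPM minus the mean of the other R117fs libraries had an SD over genes of 0.578, against at most 0.409 for any other library and its group, and its deviation from the mean of all libraries rose with the GC content of the gene (Spearman 0.757 across genes, which are not independent replicates). Of the HEK293 markers all 7 were tested, with a summed level of 830 to 924 TPM in G659fs, 733 to 965 TPM in R117fs, 933 to 964 TPM in WT and 764 to 885 TPM in GFP. Most of that sum was VIM and NEFM, at means of 628 and 106 TPM over the 16 libraries. PAX2 and LHX1 averaged only 4.27 and 0.892 TPM. The 4 hepatocyte markers summed to at most 4.20 TPM in any library, with TTR, FGB and SERPINA1 at or near 0, and the 4 fibroblast markers to 15.1 to 32.6 TPM, mostly COL1A1. Of the 5 gut markers MUC2 had no value, and CDX2, VIL1, LGR5 and KRT20 summed to 21.1 to 28.4 TPM, mostly CDX2. The 5 haematopoietic markers summed to 8.11 to 10.1 TPM in G659fs, 6.13 to 8.18 TPM in R117fs and 7.12 to 8.43 TPM in WT, against 11.5 to 15.4 TPM in GFP, and their part in the results was not tested. In bulk RNA, fewer cells of a kind and less RNA per cell cannot be told apart.

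In cells with G659fs, sterol and fatty acid genes were mostly higher than in GFP cells. Of the 31 genes, 12 rose and 1 fell with all 16 libraries (edgeR's quasi-likelihood test, adjusted p under 0.05 over all genes tested), where 11.6% of all genes tested rose and 13.8% fell. The median log2 fold change of the 31 genes was 0.26, against 0.00 for all genes tested, and 29 of the 31 were positive. All 4 G659fs libraries lay above all 4 GFP libraries in 23 of the genes, and below them in 1, where that held for 19.1% and 18.8% of all genes tested. The genes that rose were ACAT2, SQLE, CYP51A1, EBP, DHCR7, INSIG1, FASN, ACLY, SCD, ELOVL6, FADS1 and FADS2, and the gene that fell was HSD17B7. Fold changes of the risen genes ran from 1.15-fold for ACAT2 to 2.18-fold for INSIG1. The fit takes 1 estimate of the spread from all groups, R117fs replicate 4 included, and without that library 23 of the 31 rose, where 19.7% of all genes did, and 1 fell. Only 9 rose without GFP replicate 3 or 4 or G659fs replicate 2 or 3, where 7.86% to 8.61% of all genes rose. Scaling by library totals in place of TMM left 9 higher and 1 lower, where 8.31% of all genes rose and 16.8% fell.

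In cells with R117fs, 6 of the 31 genes rose against GFP and none fell, where 7.04% of all genes tested rose and 8.57% fell. The genes were MVD, NSDHL, DHCR7, SCD, FADS1 and FADS2, at 1.19-fold to 1.46-fold. An unadjusted p under 0.05 was found for 13 higher and 1 lower gene, where 14.3% of all genes were higher and 15.7% lower by that measure. DESeq2 called 11 higher and 1 lower, where it called 9.45% and 9.90% of all genes. The median log2 fold change was 0.19, against -0.01 for all genes tested, and 30 of the 31 were positive. The R117fs libraries lay above every GFP library in 10 genes and below them in 1, where that held for 7.29% and 9.19% of all genes tested. R117fs was the least uniform group, and leaving out any of its libraries moved the count: 10 rose and 1 fell without replicate 1, 11 rose without replicate 2, 10 rose without replicate 3, and 9 rose and 1 fell without replicate 4, where 8.53%, 7.74%, 7.38% and 9.85% of all genes rose. With the 8 libraries of R117fs and GFP alone 2 of the 31 were called, DHCR7 and SCD, both higher, where 1.38% of all genes rose, and the calls of MVD, NSDHL, FADS1 and FADS2 were lost.

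In cells with WT RNF43, 8 of the 31 genes rose against GFP and none fell, where 9.85% of all genes tested rose and 11.6% fell. The genes were FDPS, CYP51A1, NSDHL, SC5D, DHCR7, ACLY, SCD and FADS1, at 1.14-fold to 1.27-fold. By unadjusted p under 0.05, 11 genes were higher and 1 lower, where 16.4% of all genes were higher and 17.7% lower. DESeq2 called 9 higher and 1 lower, where it called 11.3% and 12.6% of all genes. The median log2 fold change was 0.18, against 0.00 for all genes tested, and 27 of the 31 were positive. The WT libraries lay above every GFP library in 10 genes and below them in 1, where that held for 17.1% and 16.7% of all genes tested. The count depended on single libraries: 3 genes rose without WT replicate 2 and 3 without GFP replicate 4, where 6.57% and 5.34% of all genes rose. It was 5 without any of WT replicate 3, WT replicate 4, GFP replicate 2 or GFP replicate 3, where 6.34% to 7.27% of all genes rose, and 15 without R117fs replicate 4, of which 14 rose beside 18.2% of all genes. Scaling by library totals in place of TMM left 3 higher and 1 lower, where 5.91% of all genes rose and 15.6% fell. Under that scaling the median log2 fold change of all genes was -0.06.

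The 3 comparisons share the 4 GFP libraries, so their calls are not independent of each other, and the values of each gene are given for all groups side by side. When the GC trend of each library was removed before the fit, 22 genes rose in G659fs, 15 in R117fs and 15 in WT against GFP, where 20.9%, 13.7% and 19.2% of all genes rose in these comparisons. With the 8 libraries of a comparison alone, 23 rose in G659fs and 14 in WT, where 21.9% and 18.1% of all genes did.

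**Figure D1:**
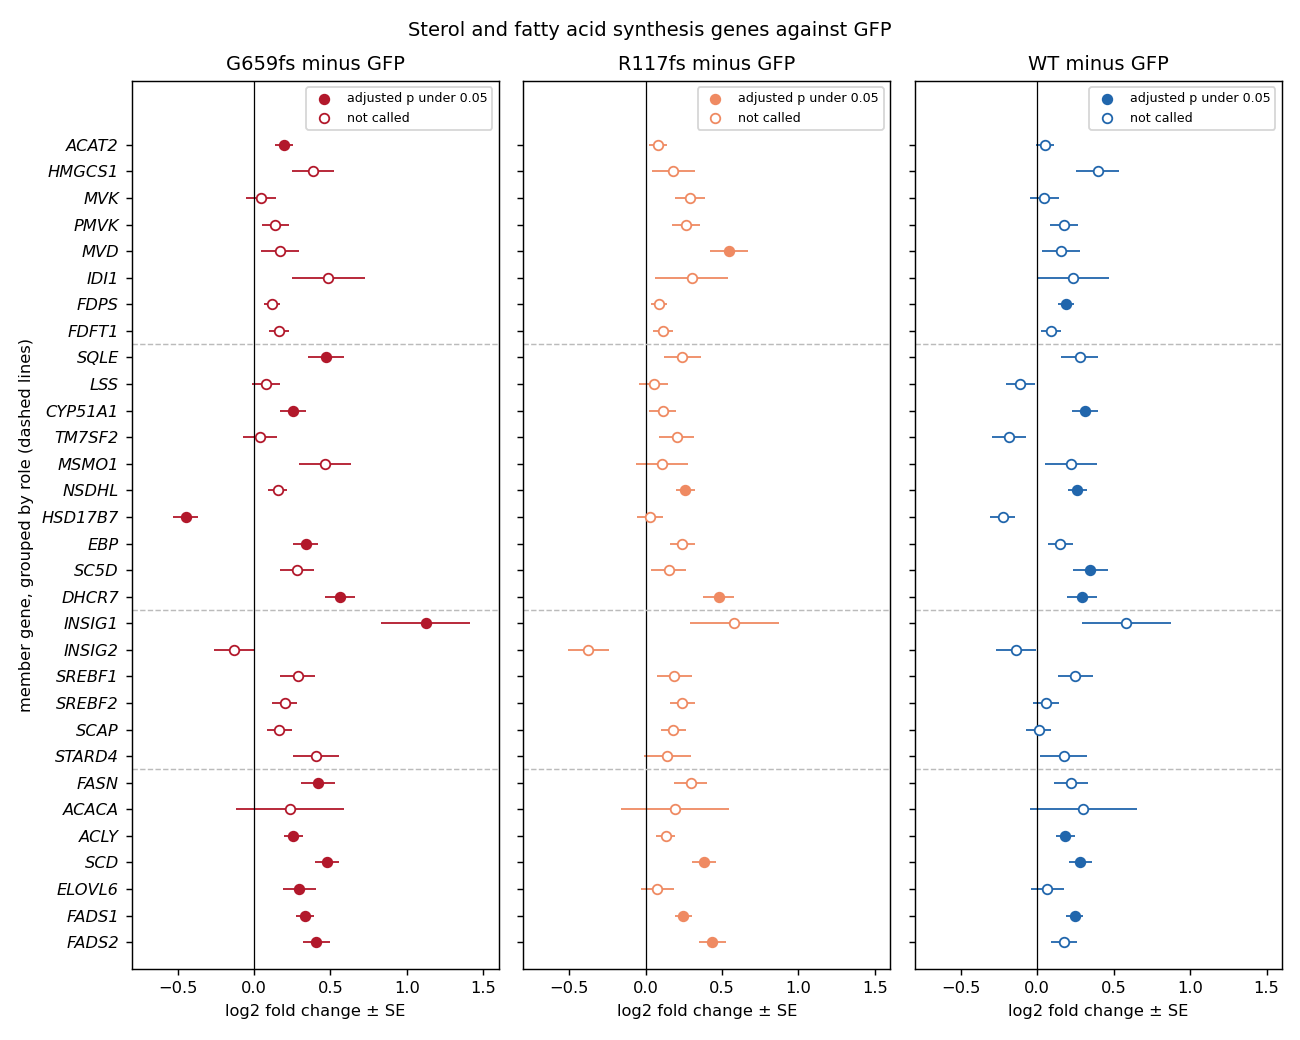
Log2 fold change ± SE of the 31 genes against GFP in G659fs, R117fs and WT, from left to right, with genes down the page by role (from top: acetyl-CoA to squalene, squalene to sterols, sensing and transport, fatty acids) and filled points for adjusted p under 0.05. Most points lie right of 0 in each panel, INSIG1 in G659fs lies farthest right at 1.12, and HSD17B7 is the filled point left of 0.

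**Figure D2:**
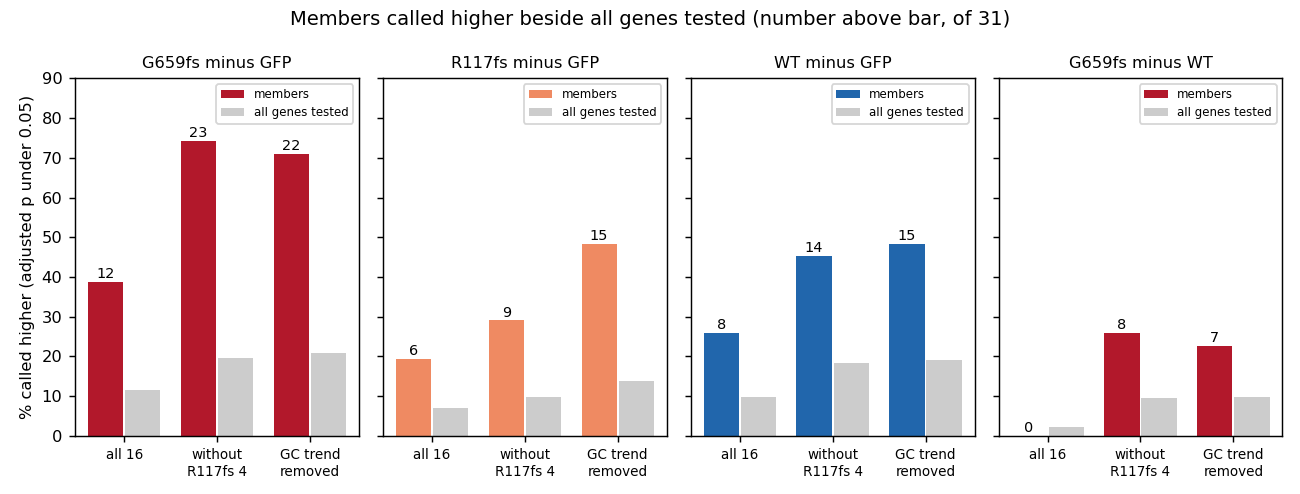
Percent of the 31 genes called higher (coloured bars, with their number) beside the percent of all genes tested (grey bars), in 3 comparisons with GFP and in G659fs against WT. In each panel the bars show all 16 libraries, the fit without R117fs replicate 4 and the fit after removing each library's GC trend. In G659fs against GFP the members' count was 12, 23 and 22 under these settings, and in G659fs against WT 0, 8 and 7.

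Promoters of 27 of the 31 genes were found in the RefSeq promoter table on GRCh38.p14, which holds 250 bases before and 50 after a start site. ACAT2, FDFT1, SQLE and FASN were not matched. CCAAT, the box bound by NF-Y, a factor that works together with SREBP, was present on either strand in the promoters of 20 of the 27 genes (74.1%), and in 42.9% of the 11820 tested genes with a promoter in the table. GGGCGG, the Sp1 box, was found in 26 of 27 (96.3%) and in 75.2% of the tested genes. CACGTG, the E-box that SREBP can also bind, was found in 4 of 27 (14.8%) and in 12.2%. TCACNCCAC, the core of the sterol regulatory element, was found in 1 of 27, SREBF2, and in 1.51% of the tested genes. These letters are a description of the window and not of a bound site, and a gene with several start sites counted once. The promoters given are those of INSIG1, the gene with the highest fold change, of SCD and DHCR7, which were called higher in each comparison with GFP, of FADS1, which was also called in each and has no CCAAT in its window, of HSD17B7, which fell in G659fs, and of SREBF2, which holds the sterol element core. They run 5′ to 3′ on the strand of the gene, and capitals mark CCAAT or its reverse complement ATTGG and, in SREBF2, TCACNCCAC.
INSIG1, chr7:155297628-155297927, plus strand: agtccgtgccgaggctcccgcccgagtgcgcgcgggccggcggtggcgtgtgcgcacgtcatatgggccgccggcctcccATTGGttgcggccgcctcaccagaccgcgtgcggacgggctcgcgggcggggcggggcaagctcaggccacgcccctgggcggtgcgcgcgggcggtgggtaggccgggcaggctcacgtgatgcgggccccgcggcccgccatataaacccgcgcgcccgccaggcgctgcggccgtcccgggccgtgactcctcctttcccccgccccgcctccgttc
SCD, chr10:100346983-100347282, plus strand: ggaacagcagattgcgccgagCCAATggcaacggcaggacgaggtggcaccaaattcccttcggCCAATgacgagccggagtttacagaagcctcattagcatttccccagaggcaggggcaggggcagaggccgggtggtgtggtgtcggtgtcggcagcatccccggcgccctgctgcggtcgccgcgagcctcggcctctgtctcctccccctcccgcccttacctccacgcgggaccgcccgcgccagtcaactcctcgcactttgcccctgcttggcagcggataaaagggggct
DHCR7, chr11:71448344-71448643, minus strand: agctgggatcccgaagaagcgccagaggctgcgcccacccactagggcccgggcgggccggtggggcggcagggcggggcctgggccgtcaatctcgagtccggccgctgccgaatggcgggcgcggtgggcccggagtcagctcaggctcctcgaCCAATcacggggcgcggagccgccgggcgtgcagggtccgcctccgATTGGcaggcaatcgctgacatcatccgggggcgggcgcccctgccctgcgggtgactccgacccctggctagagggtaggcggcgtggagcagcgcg
FADS1, chr11:61816954-61817253, minus strand: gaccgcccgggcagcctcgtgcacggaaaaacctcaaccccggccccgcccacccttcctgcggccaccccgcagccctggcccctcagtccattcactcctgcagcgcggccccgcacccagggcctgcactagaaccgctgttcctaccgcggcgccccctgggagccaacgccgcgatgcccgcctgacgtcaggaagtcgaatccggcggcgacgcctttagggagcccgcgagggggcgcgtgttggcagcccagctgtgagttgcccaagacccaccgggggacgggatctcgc
HSD17B7, chr1:162790452-162790751, plus strand: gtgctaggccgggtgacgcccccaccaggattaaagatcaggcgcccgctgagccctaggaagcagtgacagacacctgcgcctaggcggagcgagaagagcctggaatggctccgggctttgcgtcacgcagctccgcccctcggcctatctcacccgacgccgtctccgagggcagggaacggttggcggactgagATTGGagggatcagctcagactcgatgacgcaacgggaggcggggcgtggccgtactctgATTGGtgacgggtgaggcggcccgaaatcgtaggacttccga
SREBF2, chr22:41832855-41833154, plus strand: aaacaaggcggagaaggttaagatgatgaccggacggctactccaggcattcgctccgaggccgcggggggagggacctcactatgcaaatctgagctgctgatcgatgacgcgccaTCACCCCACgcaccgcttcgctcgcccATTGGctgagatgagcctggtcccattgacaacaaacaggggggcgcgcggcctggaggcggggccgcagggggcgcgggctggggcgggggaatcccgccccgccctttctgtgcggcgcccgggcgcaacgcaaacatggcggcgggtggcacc
INSIG1 held 1 CCAAT box, 1 E-box and 6 Sp1 boxes, SCD held 2 CCAAT boxes and 2 Sp1 boxes, and DHCR7 held 2 CCAAT boxes and 4 Sp1 boxes at the start site shown. FADS1 held 2 Sp1 boxes alone. HSD17B7 held 2 CCAAT boxes and 1 Sp1 box, and SREBF2 held 1 CCAAT box and 3 Sp1 boxes beside its sterol element core.

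Among the 8 enzymes from acetyl-CoA to squalene, 1 rose in each comparison with GFP, a different gene in each, and none fell. Of all genes tested 11.6% rose in G659fs, 7.04% in R117fs and 9.85% in WT, so 1 among 8 was near these shares. The median log2 fold change was 0.16 in G659fs, 0.22 in R117fs and 0.17 in WT. ACAT2, the cytosolic thiolase that joins the first acetyl-CoA units, rose in G659fs (log2 fold change 0.20 ± 0.06 SE, adjusted p = 0.0224). ACAT2 had 46.7, 49.2, 49.2 and 46.5 CPM in G659fs, 44.6, 45.7, 45.6 and 41.1 CPM in R117fs, 40.9, 45.2, 41.9 and 45.2 CPM in WT and 41.5, 44.2, 40.7 and 41.00 CPM in GFP. The G659fs libraries lay above all libraries of the other 3 groups. The call was lost without GFP replicate 1, 3 or 4 or G659fs replicate 2 or 3, with adjusted p up to 0.0705, with an offset for effective length (adjusted p = 0.0623) and with library totals in place of TMM (adjusted p = 0.0781). The protein-coding transcript ACAT2-201 held 37.6% ± 2.73 of the gene's counts in G659fs and 38.0% ± 1.68 in GFP. Most other counts lay on transcripts not annotated as protein-coding. ACAT2 also overlaps SOD2 and TCP1 on the opposite strand.

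MVD, the decarboxylase that makes the isopentenyl unit, rose in R117fs (log2 fold change 0.55 ± 0.12 SE, adjusted p = 0.00644). MVD had 38.1, 35.7, 36.4 and 35.8 CPM in G659fs, 40.98, 41.6, 42.2 and 65.8 CPM in R117fs, 35.1, 35.9, 37.3 and 36.4 CPM in WT and 34.7, 32.2, 27.3 and 35.8 CPM in GFP. R117fs replicate 4 was far above the other R117fs libraries, whose mean of 41.6 ± 0.600 CPM (SD, n = 3) was itself above all GFP libraries. Without replicate 4 MVD remained called at a log2 fold change of 0.36 (adjusted p = 0.00113), and with the 8 libraries of R117fs and GFP alone the call was lost (adjusted p = 0.0839). FDPS, which makes farnesyl diphosphate, rose in WT (log2 fold change 0.19 ± 0.05 SE, adjusted p = 0.0137). FDPS had 119, 122, 114 and 120.3 CPM in G659fs, 116, 112, 113 and 124 CPM in R117fs, 125, 125, 126 and 125 CPM in WT and 112, 111, 109 and 106 CPM in GFP. The WT libraries lay above all GFP libraries, and so did those of G659fs and R117fs, where the log2 fold changes of 0.12 ± 0.05 and 0.09 ± 0.05 were not called. The WT call was lost without GFP replicate 4 (adjusted p = 0.0545), with an offset for effective length (adjusted p = 0.157) and with library totals (adjusted p = 0.0741), and the reads of FDPS may be shared with its 8 named pseudogenes.

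The remaining 5 enzymes of this role passed the test in no comparison with all 16 libraries. HMGCS1, which makes HMG-CoA, averaged 66.8 ± 1.02 CPM in G659fs, 57.9 ± 17.00 CPM in R117fs and 67.2 ± 5.17 CPM in WT, against 51.1 ± 1.42 CPM in GFP. All G659fs and all WT libraries lay above all GFP libraries, with log2 fold change 0.39 ± 0.14 SE, adjusted p = 0.05001 in G659fs and log2 fold change 0.40 ± 0.14 SE, adjusted p = 0.0512 in WT, just outside the threshold. In R117fs HMGCS1 had 54.1, 65.97, 75.4 and 36.00 CPM, so replicate 4 alone lay below the GFP libraries. Without that library HMGCS1 was called in all 3 comparisons, at log2 fold changes of 0.39 in G659fs, 0.34 in R117fs and 0.40 in WT (adjusted p = 0.000513, 0.00539 and 0.000481). IDI1, the isomerase after MVD, had 71.4, 82.6, 86.7 and 77.4 CPM in G659fs and 49.1, 63.97, 54.4 and 59.7 CPM in GFP (log2 fold change 0.49 ± 0.24 SE, adjusted p = 0.149). Those 2 groups did not overlap, but IDI1 ran from 38.7 to 105 CPM within R117fs and from 53.7 to 89.1 CPM within WT. The kinases MVK and PMVK and the squalene synthase FDFT1 had log2 fold changes between 0.05 for MVK in G659fs and WT and 0.29 for MVK in R117fs. R117fs replicate 4 was the highest library of its group for MVK and for PMVK.

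Among the 10 enzymes from squalene to sterols, 4 rose and 1 fell in G659fs, 2 rose in R117fs and 4 rose in WT, all against GFP. Of all genes tested 11.6%, 7.04% and 9.85% rose in these comparisons, and 13.8%, 8.57% and 11.6% fell. Their median log2 fold change was 0.27 in G659fs, 0.18 in R117fs and 0.24 in WT. SQLE, the squalene epoxidase and a rate-limiting step of this branch, rose in G659fs (log2 fold change 0.47 ± 0.12 SE, adjusted p = 0.00837). SQLE had 101, 114, 113 and 108 CPM in G659fs, 85.2, 94.7, 117 and 75.1 CPM in R117fs, 81.2, 115, 85.5 and 99.5 CPM in WT and 72.3, 85.1, 72.8 and 84.5 CPM in GFP. All G659fs libraries lay above all GFP libraries, and R117fs and WT overlapped with GFP. The highest library of R117fs was replicate 3 and the highest of WT was replicate 2.

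DHCR7, the reductase that makes cholesterol from its last precursor, was called in each comparison with GFP. DHCR7 had 97.7, 108, 102 and 102 CPM in G659fs, 84.3, 88.5, 106 and 109 CPM in R117fs, 71.1, 96.96, 82.3 and 89.8 CPM in WT and 70.3, 71.3, 60.6 and 75.7 CPM in GFP. The log2 fold change was 0.56 ± 0.10 in G659fs (adjusted p = 0.000606), 0.48 ± 0.10 in R117fs (adjusted p = 0.00388) and 0.29 ± 0.10 in WT (adjusted p = 0.0433). The G659fs and R117fs libraries lay above all GFP libraries, while WT replicate 1 lay within the GFP range. The WT call was lost without any GFP library, without WT replicate 2, 3 or 4 or without any G659fs library, with adjusted p up to 0.157, and with library totals (adjusted p = 0.115).

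CYP51A1, the lanosterol demethylase, rose in G659fs (log2 fold change 0.26 ± 0.09 SE, adjusted p = 0.0366) and in WT (log2 fold change 0.31 ± 0.09 SE, adjusted p = 0.015). CYP51A1 had 155, 143, 152 and 146 CPM in G659fs, 142, 142, 151 and 103 CPM in R117fs, 154, 165, 151 and 149.9 CPM in WT and 127, 127, 125 and 120.2 CPM in GFP. In R117fs, replicates 1 to 3 lay above and replicate 4 below all GFP libraries. The G659fs call was lost without any G659fs or GFP library, with adjusted p up to 0.102, and the WT call without WT replicate 2 or GFP replicate 4, with adjusted p up to 0.0614. Neither was called under the offset for effective length (adjusted p = 0.104 in G659fs and 0.0688 in WT), and the G659fs call was also lost with library totals (adjusted p = 0.0832). NSDHL, which acts in removing methyl groups from sterols, rose in R117fs (log2 fold change 0.26 ± 0.06 SE, adjusted p = 0.01) and in WT (log2 fold change 0.26 ± 0.06 SE, adjusted p = 0.00631). NSDHL had 30.7, 33.5, 31.1 and 30.3 CPM in G659fs, 33.9, 31.3, 34.4 and 35.7 CPM in R117fs, 33.5, 35.1, 34.00 and 32.5 CPM in WT and 28.1, 29.1, 26.5 and 29.1 CPM in GFP. All libraries of the 3 RNF43 groups lay above all GFP libraries, and the G659fs value of 0.16 ± 0.06 did not pass (adjusted p = 0.0761). The R117fs call of NSDHL was lost with the 8 libraries of the comparison alone (adjusted p = 0.115) and with the offset for effective length (adjusted p = 0.0692).

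EBP, the sterol isomerase, rose in G659fs (log2 fold change 0.34 ± 0.08 SE, adjusted p = 0.00557). EBP had 67.8, 74.6, 71.3 and 71.5 CPM in G659fs, 60.8, 59.4, 65.9 and 81.3 CPM in R117fs, 59.00, 65.4, 63.4 and 62.9 CPM in WT and 58.5, 57.6, 54.2 and 55.4 CPM in GFP. Every RNF43 library lay above every GFP library, at 0.24 ± 0.08 in R117fs and 0.15 ± 0.08 in WT on the log2 scale, which were not called. The transcript EBP-201, not annotated as protein-coding, held 61.3% ± 1.22 of EBP counts in G659fs and 59.0% ± 1.12 in GFP. SC5D, the sterol desaturase, rose in WT (log2 fold change 0.35 ± 0.11 SE, adjusted p = 0.0325). SC5D had 89.1, 77.2, 82.4 and 81.8 CPM in G659fs, 74.2, 84.7, 89.8 and 52.7 CPM in R117fs, 88.7, 84.7, 84.2 and 88.9 CPM in WT and 62.3, 71.1, 69.01 and 69.5 CPM in GFP. G659fs and WT lay above GFP, and R117fs replicate 4 below it. The WT call was lost without any WT or GFP library (adjusted p up to 0.1) and with library totals (adjusted p = 0.0773). With the GC trend removed, SC5D was called in all 3 comparisons, at log2 fold changes of 0.33 in G659fs, 0.31 in R117fs and 0.35 in WT (adjusted p = 2.15e-05, 9.42e-05 and 1.45e-05).

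HSD17B7, a sterol ketoreductase, was the 1 gene of the 31 called lower than in GFP with all libraries. HSD17B7 had 16.4, 16.4, 17.3 and 16.7 CPM in G659fs, 19.9, 25.1, 26.5 and 21.6 CPM in R117fs, 19.4, 18.9, 20.5 and 19.02 CPM in WT and 21.02, 24.1, 22.3 and 23.6 CPM in GFP. All G659fs libraries lay below all libraries of the other groups. The log2 fold change was -0.45 ± 0.08 against GFP (adjusted p = 0.000872) and -0.48 ± 0.08 against R117fs (adjusted p = 0.00111), and both calls held under all 26 alternatives run. WT lay between, below all GFP libraries, at -0.22 ± 0.08 (adjusted p = 0.0603). HSD17B7 has near-identical copies, and reads could be split between them. The transcribed copy HSD17B7P2 was lower too, at 2.61 ± 0.484 CPM in G659fs, 7.44 ± 0.989 CPM in R117fs and 4.72 ± 0.365 CPM in WT, against 10.1 ± 2.44 CPM in GFP, a log2 fold change of -1.95 ± 0.17 SE in G659fs (adjusted p = 5.71e-07).

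TM7SF2, a sterol reductase, was called in R117fs against WT alone (log2 fold change 0.39 ± 0.11 SE, adjusted p = 0.0419). TM7SF2 had 11.4, 13.7, 12.02 and 12.8 CPM in G659fs, 11.6, 13.8, 13.4 and 17.9 CPM in R117fs, 9.65, 10.8, 11.5 and 10.9 CPM in WT and 11.9, 13.5, 10.9 and 12.4 CPM in GFP. R117fs replicate 4 was again the highest library, and the call was lost without it, without R117fs replicate 2 or 3, any WT library or G659fs replicate 3 or 4, with adjusted p up to 0.105. It was also lost with the 8 libraries alone (adjusted p = 0.179), with the offset for effective length (adjusted p = 0.0767) and with the GC trend removed and R117fs replicate 4 left out (adjusted p = 0.0727). TM7SF2 overlaps VPS51 on the same strand, and its share of counts on the protein-coding transcript TM7SF2-201 varied widely within groups, at 32.8% ± 12.2 in G659fs, 39.5% ± 11.2 in R117fs, 51.0% ± 14.4 in WT and 28.9% ± 16.2 in GFP (SD, n = 4 each). LSS, which closes the sterol ring, and MSMO1, the methyl sterol monooxygenase, passed in no comparison. LSS averaged 94.5 ± 4.45 CPM in G659fs, 93.1 ± 16.7 in R117fs and 83.01 ± 1.77 in WT, against 89.6 ± 6.32 in GFP. MSMO1 had 39.05, 44.1, 43.2 and 40.5 CPM in G659fs, above all GFP libraries at 26.9, 32.8, 28.5 and 32.8 CPM, but its adjusted p of 0.0502 lay just outside the threshold. Without R117fs replicate 4 it was called at 0.47 (adjusted p = 0.0114).

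Of the 6 genes of sterol sensing and transport, INSIG1 alone passed edgeR's test against GFP, in G659fs, where 11.6% of all genes tested rose. The shares of all genes by the other measures in R117fs and WT are given above. At an unadjusted p under 0.05 there were 3 genes in R117fs, 2 of them higher, and 1 in WT, and DESeq2 called 1 higher and 1 lower in R117fs and 0 in WT. INSIG1 had 149, 188, 188 and 164 CPM in G659fs, 68.5, 142, 180.2 and 82.3 CPM in R117fs, 77.7, 171, 102 and 122 CPM in WT and 64.6, 96.3, 66.1 and 88.9 CPM in GFP. All G659fs libraries lay above all GFP libraries (log2 fold change 1.12 ± 0.29 SE, adjusted p = 0.0121), and the call held under all 26 alternatives run. R117fs and WT had a similar mean, at 118 ± 52.2 and 118 ± 39.6 CPM, against 78.97 ± 16.01 CPM in GFP, but their libraries spread so widely that log2 fold changes of 0.58 ± 0.29 and 0.58 ± 0.29 did not pass (adjusted p = 0.198 and 0.173). In R117fs, replicates 2 and 3 lay in or near the G659fs range, while replicates 1 and 4 lay within the GFP range. In WT, replicate 2 lay in the G659fs range and replicate 1 within the GFP range.

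INSIG2, the other anchor of SCAP, had log2 fold changes below 0 in all 3 comparisons, none of them called. INSIG2 had 20.3, 21.5, 21.6 and 18.5 CPM in G659fs, 20.6, 18.8, 18.6 and 10.5 CPM in R117fs, 22.2, 20.1, 20.4 and 18.99 CPM in WT and 21.4, 21.97, 24.7 and 21.7 CPM in GFP. The R117fs libraries lay below all GFP libraries (log2 fold change -0.37 ± 0.13 SE, adjusted p = 0.0672), with replicate 4 the lowest, and without that library it was called at -0.21 (adjusted p = 0.0479). SREBF2, the gene of the sterol-directed SREBP, averaged 259.6 ± 2.90 CPM in G659fs, 267 ± 43.96 CPM in R117fs and 235 ± 8.31 CPM in WT, against 226 ± 10.96 CPM in GFP. The G659fs libraries held within 257 to 264 CPM and lay above all GFP libraries (log2 fold change 0.20 ± 0.08 SE, adjusted p = 0.0831). SREBF1, the gene of the SREBP that leans to fatty acids, had log2 fold change 0.29 ± 0.11 SE, adjusted p = 0.0735 in G659fs, and the sterol carrier STARD4 had log2 fold change 0.40 ± 0.15 SE, adjusted p = 0.057. SCAP had log2 fold change 0.17 ± 0.08 SE, adjusted p = 0.161. For SREBF1, SREBF2, SCAP and STARD4 all G659fs libraries lay above all GFP libraries, and all of them were called without R117fs replicate 4, with adjusted p between 0.000753 for SREBF2 and 0.0067 for SCAP.

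Of the 7 fatty acid enzymes 6 rose in G659fs, 3 in R117fs and 3 in WT against GFP, and none fell. Among all genes tested 11.6%, 7.04% and 9.85% rose in these comparisons. Their median log2 fold change was 0.33 in G659fs, 0.25 in R117fs and 0.22 in WT. SCD, the desaturase that makes oleate, was called in each comparison with GFP. SCD had 831, 891, 901 and 845 CPM in G659fs, 759, 806, 914 and 768 CPM in R117fs, 655, 873, 726 and 779 CPM in WT and 602, 645, 617 and 629 CPM in GFP. Every RNF43 library lay above every GFP library. The log2 fold change was 0.48 ± 0.08 in G659fs (adjusted p = 0.000288), 0.38 ± 0.08 in R117fs (adjusted p = 0.00311) and 0.28 ± 0.08 in WT (adjusted p = 0.0143). The WT call was lost without WT replicate 2 (adjusted p = 0.068) and with library totals (adjusted p = 0.056).

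FADS1 and FADS2, the desaturases of polyunsaturated fatty acids, are neighbours that overlap on opposite strands, and without a strand setting their shared reads cannot be told apart. FADS1 had 179.9, 172, 179.98 and 173 CPM in G659fs, 176, 168, 154 and 167 CPM in R117fs, 161, 162, 171 and 169 CPM in WT and 139, 147, 130.4 and 143 CPM in GFP. FADS2 had 48.2, 53.5, 53.6 and 49.6 CPM in G659fs, 47.5, 45.8, 52.1 and 64.3 CPM in R117fs, 41.9, 45.95, 42.6 and 43.9 CPM in WT and 37.1, 40.4, 37.00 and 39.96 CPM in GFP. For both genes each library with an RNF43 construct exceeded the highest GFP library. FADS1 had a log2 fold change of 0.33 ± 0.06 in G659fs, 0.25 ± 0.06 in R117fs and 0.25 ± 0.06 in WT (adjusted p = 0.000436, 0.00722 and 0.00505). The R117fs and WT calls of FADS1 were lost under the offset for effective length, at adjusted p = 0.126 and 0.0522, and the R117fs call with the 8 libraries of the comparison alone (adjusted p = 0.115). FADS2 rose in G659fs (log2 fold change 0.41 ± 0.09 SE, adjusted p = 0.00247) and in R117fs (log2 fold change 0.44 ± 0.09 SE, adjusted p = 0.00302), and had 0.18 ± 0.09 in WT (adjusted p = 0.167). With 8 libraries alone the R117fs call of FADS2 was lost (adjusted p = 0.0574).

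FASN, the fatty acid synthase, rose in G659fs (log2 fold change 0.42 ± 0.11 SE, adjusted p = 0.00889). FASN had 726, 753, 752 and 802 CPM in G659fs, 661, 589, 612 and 924 CPM in R117fs, 593, 731, 641 and 681 CPM in WT and 603, 579, 523 and 565 CPM in GFP. The G659fs libraries lay above all GFP libraries. R117fs replicate 4 held the highest value of all 16 libraries, and R117fs and WT overlapped with GFP. ACLY, the citrate lyase, rose in G659fs (log2 fold change 0.26 ± 0.06 SE, adjusted p = 0.00574) and in WT (log2 fold change 0.18 ± 0.06 SE, adjusted p = 0.0416). ACLY had 603, 625, 621 and 623 CPM in G659fs, 570.5, 517, 561 and 618 CPM in R117fs, 536, 639, 572 and 604 CPM in WT and 523, 527, 499 and 521 CPM in GFP. The WT call of ACLY was lost without any GFP or G659fs library or WT replicate 2, 3 or 4, with adjusted p up to 0.142, with library totals (adjusted p = 0.159), with the length offset (adjusted p = 0.0755) and with no filter on low counts (adjusted p = 0.0646). ELOVL6, the elongase of C16 fatty acids, was called in G659fs just inside the threshold (log2 fold change 0.30 ± 0.11 SE, adjusted p = 0.0495). ELOVL6 had 41.3, 48.3, 48.9 and 43.2 CPM in G659fs, 36.3, 41.7, 46.3 and 31.8 CPM in R117fs, 33.1, 46.00, 36.5 and 39.2 CPM in WT and 35.4, 36.7, 37.6 and 38.3 CPM in GFP. The ELOVL6 call was lost without any GFP library, without WT replicate 3 or 4, R117fs replicate 1 or 2 or G659fs replicate 2, 3 or 4, and under the offset for effective length, where the log2 fold change was 0.16 (adjusted p = 0.664). Library totals (adjusted p = 0.11) and no filter on low counts (adjusted p = 0.0503) ended it as well.

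ACACA, the acetyl-CoA carboxylase that commits acetyl-CoA to fatty acids, passed in no comparison. It had 48.7, 71.99, 53.7 and 29.5 CPM in G659fs, 58.6, 51.2, 63.7 and 24.5 CPM in R117fs, 53.8, 84.3, 37.5 and 37.9 CPM in WT and 26.2, 46.1, 53.99 and 47.1 CPM in GFP. The libraries of each group spread over more than the whole difference between groups, and its log2 fold change was 0.24 ± 0.35 in G659fs, 0.19 ± 0.35 in R117fs and 0.30 ± 0.35 in WT. Its counts were also split unevenly over transcripts, with ACACA-231 holding 50.6% ± 28.3 in G659fs, 47.7% ± 20.2 in R117fs, 58.9% ± 16.5 in WT and 48.6% ± 27.95 in GFP.

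**Figure D3:**
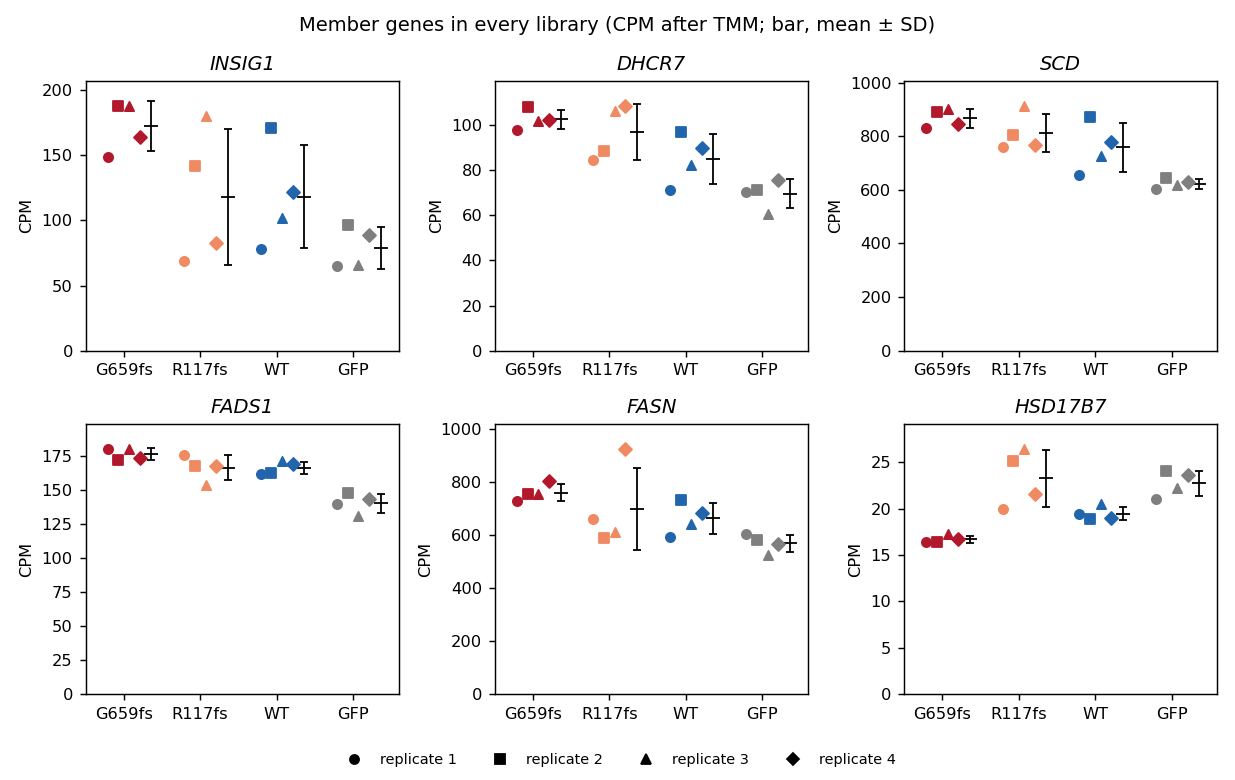
CPM of 6 genes in every library, with G659fs, R117fs, WT and GFP from left to right, a marker shape per replicate number and mean ± SD beside each group. INSIG1 runs from 68.5 to 180.2 CPM within R117fs while its 4 G659fs libraries lie between 149 and 188 CPM. HSD17B7 is lowest in G659fs, at 16.4 to 17.3 CPM.

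Between the RNF43 groups few of the 31 genes passed the test. None was called in G659fs against WT, where 2.32% of all genes tested rose and 3.35% fell. By unadjusted p under 0.05, 6 genes were higher and 1 lower in G659fs, where 10.4% of all genes were higher and 12.1% lower. DESeq2 called none, where it called 4.70% of all genes higher and 6.04% lower, and the median log2 difference was 0.14. Without R117fs replicate 4, whose group is no part of this comparison, 8 of the 31 rose and 1 fell in G659fs against WT, where 9.45% of all genes rose and 11.2% fell. These were ACAT2, LSS, EBP, DHCR7, SREBF2, SCAP, FASN and FADS2, at log2 differences of 0.14 for SREBF2 to 0.27 for DHCR7, and HSD17B7, at -0.22. With the GC trend removed 7 rose beside 9.78% of all genes, and leaving out WT replicate 2 with all others kept gave 1, where 2.37% of all genes rose. In R117fs against WT, 1 gene rose, TM7SF2 above, and none fell, where 4.50% of all genes rose and 3.62% fell. By unadjusted p, 6 genes were higher there and 1 lower, where 12.8% of all genes were higher and 13.1% lower, and DESeq2 called 4 higher and none lower, where it called 7.01% and 5.90% of all genes. The count there was 0 without any WT library, R117fs replicate 3 or G659fs replicate 3 or 4. In those fits 3.69% to 6.23% of all genes were called. It was 2 without R117fs replicate 2, R117fs replicate 4 or GFP replicate 3, where 5.37%, 9.48% and 6.78% of all genes were called. Without R117fs replicate 1 it was 5, where 15.4% of all genes were called. In G659fs against R117fs, none rose and 2 fell, where 6.35% of all genes rose and 8.02% fell.

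The 2 genes lower in G659fs than in R117fs were HSD17B7, described above, and MVD (log2 fold change -0.38 ± 0.12 SE, adjusted p = 0.0454). MVD averaged 36.5 ± 1.13 CPM in G659fs and 47.7 ± 12.1 CPM in R117fs, and all G659fs libraries lay below all R117fs libraries. The MVD call was lost without R117fs replicate 4 and under 10 of the other 15 left-out libraries (GFP replicates 1 and 2, every WT library and every G659fs library), with adjusted p up to 0.103, which left 1 gene called in each but the fit without R117fs replicate 4. In those 10 fits 7.79% to 13.5% of all genes were called. The MVD call was also lost with the 8 libraries alone (adjusted p = 0.152) and with the length offset (adjusted p = 0.0647). Without R117fs replicate 1 there were 3 genes, and without R117fs replicate 3 there were 4, where 16.5% and 13.7% of all genes were called. No gene of the 31 was called higher in G659fs than in R117fs with all libraries, while 1 was higher and 3 were lower at an unadjusted p under 0.05, where 14.6% of all genes were higher and 15.0% lower. DESeq2 called none higher and 2 lower there, where it called 8.42% and 10.1% of all genes. Without R117fs replicate 4, 4 genes rose (ACLY, EBP, FASN and SREBF1) and 1 fell in G659fs against R117fs, where 23.5% of all genes were called and 11.5% rose, so the share of the 31 that rose was near that of all genes. By group mean, G659fs was the highest of the 4 groups for 16 of the 31 genes, R117fs for 9, WT for 5 and GFP for 1, and GFP was the lowest for 27.

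The members' values in R117fs replicate 4 split by GC content. All 16 members with a transcript GC content of 50% or more were higher in that library than in the mean of R117fs replicates 1 to 3, with a median log2 difference of 0.43, and all 15 with less than 50% were lower, with a median of -0.55. MVD, at 65.3% GC, stood at 0.66, and IDI1, at 40.03% GC, at -0.99. ACACA was lowest at -1.23 and had 48.6% GC. The R117fs means of high-GC members such as MVD, TM7SF2, SREBF2 and FASN were higher with this library than without it, and those of HMGCS1, MSMO1, SC5D and INSIG2 lower. WT was uneven as well: WT replicate 2 was the highest WT library for 17 of the 31 genes and WT replicate 1 the lowest for 19. GC content was not tested as a reason for that.

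**Figure D4:**
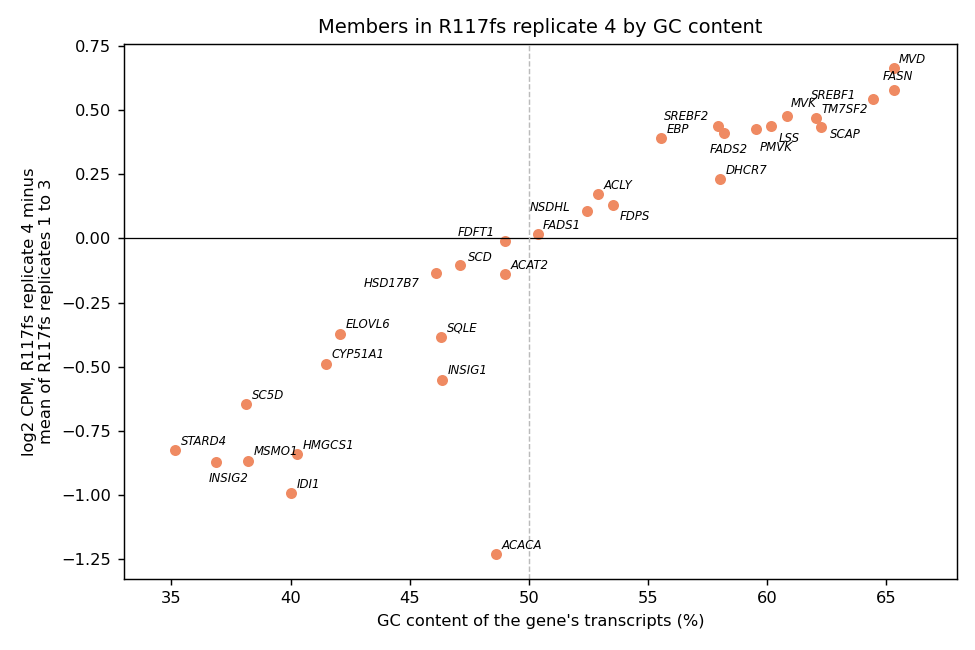
Difference in log2 CPM between R117fs replicate 4 and the mean of R117fs replicates 1 to 3 (vertical axis) against the GC content of each gene's transcripts in percent (horizontal axis), 1 point for each of the 31 genes, with a dashed line at 50%. Every gene to the right of the line lies above 0 and every gene to the left below it.

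Per length, the genes of these pathways were well expressed. Levels in TPM may be compared between genes, but RNF43 takes a share of the total in the RNF43 groups and almost none in GFP, so they are given for order and not for change. The 31 genes summed to 2176 ± 80.4 TPM in G659fs, 2075 ± 99.6 TPM in R117fs, 1959 ± 133 TPM in WT and 1912 ± 44.6 TPM in GFP. ACLY, FDPS and SCD led, at 193 ± 3.01, 182 ± 6.48 and 167 ± 6.40 TPM in GFP. ACLY and SCD did not differ beyond their spread in G659fs, at 218 ± 6.65 and 218 ± 11.4 TPM. EBP, FASN and FDFT1 followed at 126 ± 4.26, 113 ± 5.67 and 94.5 ± 3.09 TPM in GFP. STARD4, ACACA, TM7SF2 and INSIG2 were lowest, at 13.3 ± 1.93, 14.2 ± 3.49, 15.5 ± 1.31 and 17.1 ± 2.40 TPM in GFP, and did not differ beyond their spread. INSIG1 lay in the middle, at 97.1 ± 10.4 TPM in G659fs, 72.1 ± 27.4 TPM in R117fs and 65.9 ± 22.3 TPM in WT, against 47.1 ± 9.13 TPM in GFP.

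Genes around these pathways were counted by role. Of all genes tested, 11.6% rose and 13.8% fell in G659fs against GFP, 7.04% and 8.57% in R117fs, and 9.85% and 11.6% in WT. The shares by unadjusted p and by DESeq2 in R117fs and WT are given above. Of 8 partners of SREBP cleavage and of sterol-regulated degradation, 1 rose in G659fs and none in R117fs or WT against GFP. It was UBE2G2, a ubiquitin-conjugating enzyme of the endoplasmic reticulum (log2 fold change 0.34 ± 0.06 SE, adjusted p = 0.000489), at 164 ± 4.71 CPM in G659fs, against 129.7 ± 2.33 CPM in GFP. Its difference from R117fs was called as well (log2 fold change 0.25 ± 0.06 SE, adjusted p = 0.00832), but not with the 8 libraries alone (adjusted p = 0.0841). ERLIN2 was lower in G659fs than in WT (log2 fold change -0.27 ± 0.08 SE, adjusted p = 0.0495), a call lost without any GFP or WT library, R117fs replicate 2 or 3 or G659fs replicate 2, 3 or 4 (adjusted p up to 0.183), and under 4 of the 10 other alternatives (adjusted p up to 0.0964). ERLIN1 in WT had a log2 fold change of 0.17 ± 0.07 (adjusted p = 0.0671). An unadjusted p under 0.05 was found for 0 of these 8 genes in R117fs and 3 in WT, and DESeq2 called 0 in R117fs and 2 higher in WT.

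Of 12 genes for other isoprenoid products and ketone bodies, 1 rose and 2 fell in G659fs against GFP. None was called in R117fs, and 2 rose in WT. Among all genes tested, 11.6% rose and 13.8% fell in G659fs, 7.04% and 8.57% in R117fs, and 9.85% and 11.6% in WT. FNTB, a subunit of farnesyltransferase, fell in G659fs (log2 fold change -0.42 ± 0.08 SE, adjusted p = 0.000891). COQ2, an enzyme of ubiquinone synthesis, rose in WT (log2 fold change 0.44 ± 0.09 SE, adjusted p = 0.00319). In R117fs 3 of the 12 had an unadjusted p under 0.05, 1 of them higher, and DESeq2 called 1 lower. All G659fs libraries of FNTB lay below all GFP libraries, and all WT libraries of COQ2 above them.

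Of 19 other genes of fatty acid and glycerolipid synthesis 18 were tested. Against GFP, 2 rose in G659fs, 1 fell in R117fs, and 1 rose and 2 fell in WT. Beside these, 11.6% of all genes tested rose and 13.8% fell in G659fs, 7.04% and 8.57% in R117fs, and 9.85% and 11.6% in WT. SCD5, a desaturase related to SCD, rose in G659fs against GFP (log2 fold change 0.29 ± 0.07 SE, adjusted p = 0.0049) and against R117fs (log2 fold change 0.36 ± 0.07 SE, adjusted p = 0.00245). In WT, MLXIPL, a sugar-responsive transcription factor for lipid synthesis, fell (log2 fold change -0.35 ± 0.09 SE, adjusted p = 0.00782), and so did the elongase ELOVL1 (log2 fold change -0.21 ± 0.07 SE, adjusted p = 0.0329). The ELOVL1 call was lost without any WT library or GFP replicate 2 or 4, with adjusted p up to 0.0845, and with no filter on low counts (adjusted p = 0.0798). Over the list the median log2 fold change was 0.09 in G659fs, -0.03 in R117fs and 0.07 in WT.

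Of 12 genes of sterol export, transport and storage, 2 rose and 2 fell in G659fs against GFP. In R117fs 1 fell, and in WT 3 fell. Among all genes tested, 11.6% rose and 13.8% fell in G659fs, 7.04% and 8.57% in R117fs, and 9.85% and 11.6% in WT. ABCA1, the pump that exports cholesterol and a target of the sterol receptor LXR, fell in all 3 comparisons. ABCA1 had 5.64, 5.44, 6.94 and 5.58 CPM in G659fs, 5.57, 6.93, 9.02 and 6.32 CPM in R117fs, 5.65, 5.26, 6.51 and 5.44 CPM in WT and 9.77, 10.5, 10.3 and 10.7 CPM in GFP. Every RNF43 library lay below every GFP library. The log2 fold change was -0.80 ± 0.12 in G659fs (adjusted p = 0.000158), -0.59 ± 0.12 in R117fs (adjusted p = 0.00386) and -0.85 ± 0.12 in WT (adjusted p = 0.000119), and the 3 calls held under all 26 alternatives run. ABCG1, another exporter, fell in WT (log2 fold change -0.37 ± 0.10 SE, adjusted p = 0.0116) and was higher in R117fs than in WT (log2 fold change 0.55 ± 0.10 SE, adjusted p = 0.00305). ABCG1 had 11.3, 11.1, 11.5 and 10.3 CPM in G659fs, 12.8, 14.2, 14.04 and 18.4 CPM in R117fs, 9.56, 9.49, 11.3 and 10.1 CPM in WT and 12.96, 13.6, 13.03 and 12.7 CPM in GFP. R117fs replicate 4 was the highest library, and the call against WT held without it (log2 difference 0.44, adjusted p = 0.00168). With the 8 libraries of R117fs and WT alone it was lost (adjusted p = 0.074). OSBP, an oxysterol-binding protein, was lower in G659fs than in R117fs (log2 fold change -0.31 ± 0.06 SE, adjusted p = 0.00216).

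The list of fatty acid oxidation held 12 genes, counting PLIN2, which belongs to lipid droplets. Against GFP, 3 fell in G659fs (PLIN2 among them), 1 rose and 2 fell in R117fs, and 1 rose and 3 fell in WT. Beside these, 11.6% of all genes tested rose and 13.8% fell in G659fs, 7.04% and 8.57% in R117fs, and 9.85% and 11.6% in WT. PLIN2, a coat protein of lipid droplets, fell in G659fs against GFP (log2 fold change -0.34 ± 0.05 SE, adjusted p = 0.000245) and against R117fs (log2 fold change -0.24 ± 0.05 SE, adjusted p = 0.00711), where the call was lost with the 8 libraries alone (adjusted p = 0.0624). CPT2, a mitochondrial carnitine transferase, rose in WT (log2 fold change 0.37 ± 0.07 SE, adjusted p = 0.00117) and in R117fs (log2 fold change 0.23 ± 0.07 SE, adjusted p = 0.0363), where the call was lost without GFP replicate 2, 3 or 4 (adjusted p up to 0.127) and under 4 of the 10 other alternatives, the 8 libraries alone, the length offset, library totals and no filter on low counts (adjusted p up to 0.196). CPT2 had 26.9, 24.7, 25.4 and 26.2 CPM in G659fs, 29.6, 29.6, 28.6 and 31.3 CPM in R117fs, 31.8, 31.8, 34.8 and 33.1 CPM in WT and 28.6, 25.3, 25.2 and 22.7 CPM in GFP. All WT libraries lay above all GFP libraries.

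**Figure D5:**
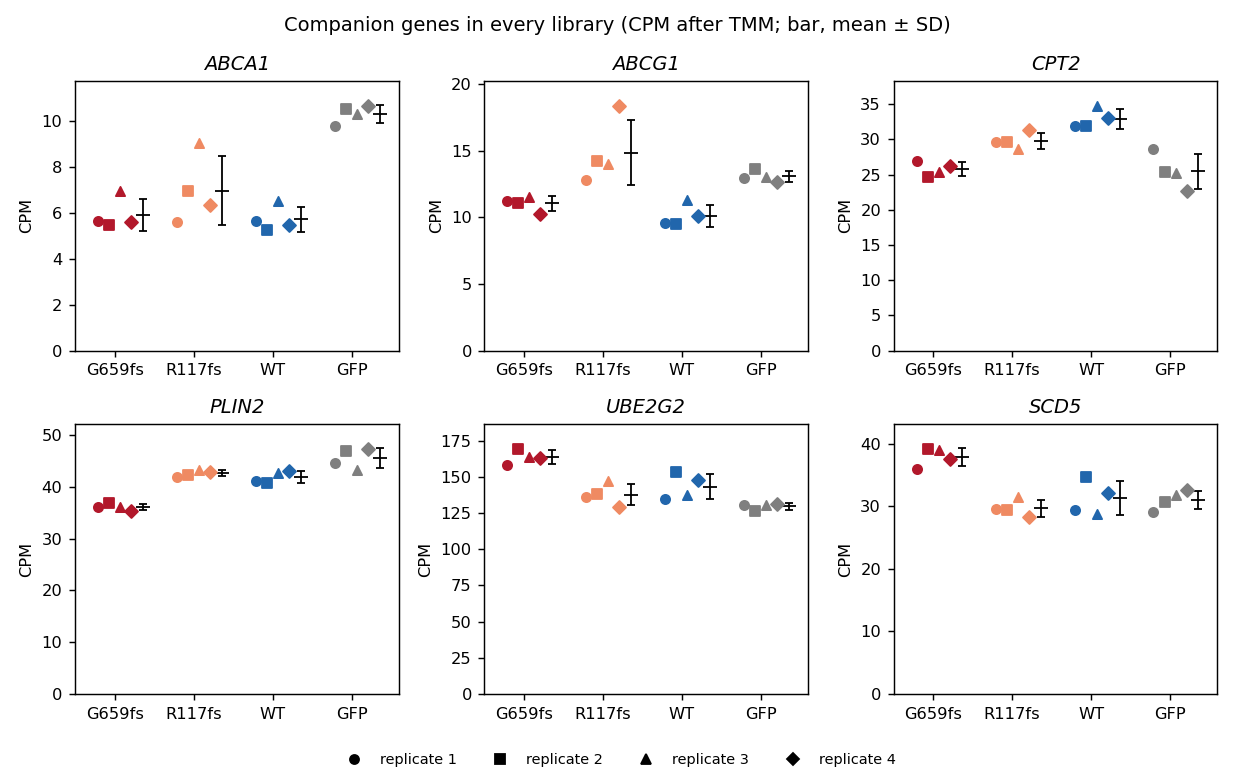
CPM of 6 genes around the pathways in every library, with G659fs, R117fs, WT and GFP from left to right, a marker shape per replicate number and mean ± SD beside each group. ABCA1 lies at 5.26 to 9.02 CPM in the RNF43 libraries, below the GFP libraries at 9.77 to 10.7 CPM, and all WT libraries of CPT2 lie above all GFP libraries.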

How the data were processed

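RNA was sequenced from 16 libraries of HEK293 cells, 4 in each of 4 groups. Total RNA was extracted with RNeasy and DNase I and made into libraries with NEBNext reagents, per the labels' protocols. The submitters' processing notes name kallisto 0.45.1 and the build GRCh38. The deposited files hold estimated counts and TPM per transcript, per the file headers. Annotation release, strand setting, read length and the selection of poly(A) RNA are not given in the sources used here. Kallisto divides reads of similar sequences between transcripts, so near-identical and overlapping genes are uncertain.

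Of 178136 transcripts, 162453 (91.20%) were matched by identifier to GENCODE 29 and summed to 35075 genes. Unmatched transcripts held 1.90% to 2.22% of the estimated counts per library and were left out. Sums were rounded to whole numbers, and filterByExpr kept 16787 genes. The main fit used edgeR 4.0.16 in R 4.3.3 with TMM scaling, all 16 libraries in 1 model and the quasi-likelihood test with robust dispersion. P-values were adjusted over all genes tested by the Benjamini-Hochberg method, and a gene was called at an adjusted p under 0.05. The SE is the log2 fold change divided by the root of its F statistic. DESeq2 1.42.0 was an alternative, and its shares are over genes to which it gave an adjusted p. The main fit was tested on simulated data with known changes in R117fs against GFP. The simulation had a constant dispersion and no GC trend of the kind seen in R117fs replicate 4. The alternative fits were not tested in that way. Alternatives were RLE size factors, no filter on low counts, the 8 libraries of a comparison alone, an offset for effective length, removal of each library's GC trend (spline with 5 degrees of freedom), replicate number as a block, and leaving out each library. Removal of the GC trend without R117fs replicate 4, and scaling by library totals without RNF43, were chosen after seeing the data. No pair of libraries of the same group agreed within sampling noise (24 pairs), so all 16 were counted. Pairs of libraries from different groups were not compared in this way.

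The 31 genes and the lists around them were chosen with earlier results of these data known. Genes called in at least 1 comparison are given in full. From each neighbouring list the 3 genes with the smallest adjusted p in any comparison are named, except 2 that are counted in their lists and not reported here. Promoter sequences are from RefSeq on GRCh38.p14.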

Additional observations from a re-analysis of the deposited data

Results flagged for a closer look

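In 7 of 124 sets of 4 replicate values, 1 library stood apart from the other 3 by more than Dixon's 95% critical value, where chance alone gives about 1 in 20. R117fs replicate 4 accounted for 4 of them. MVK was at 34.7 CPM in that library, against 24.6 to 25.3 CPM in the other R117fs libraries. PMVK was at 47.8 CPM there, against 35.2 to 36.0 CPM. MVD was at 65.8 CPM, against 41.0 to 42.2 CPM, and SREBF2 at 332.1 CPM, against 239.7 to 253.3 CPM. In GFP, PMVK was at 35.9 CPM in replicate 1, against 30.5 to 31.1 CPM in the other libraries, and STARD4 at 24.6 CPM in replicate 1, against 29.9 to 30.4 CPM. SCAP was at 191.3 CPM in GFP replicate 3, against 206.5 to 208.1 CPM.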

How the results depend on the processing

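Of 30 calls among the 31 genes, 14 held under all 26 alternatives and 16 were lost under at least 1, and none reversed. The counts of called genes are given in the order G659fs, R117fs and WT against GFP, then G659fs against WT, R117fs against WT and G659fs against R117fs, and were 13, 6, 8, 0, 1 and 2 with all libraries, beside 25.4%, 15.6%, 21.5%, 5.68%, 8.11% and 14.4% of all genes tested. They were 24, 2, 15, 11, 0 and 1 with the 8 libraries of a comparison alone (43.1%, 3.67%, 36.3%, 28.5%, 0.938% and 4.86% of all genes), 23, 16, 16, 7, 6 and 7 with the GC trend removed (40.6%, 27.7%, 38.0%, 19.8%, 17.6% and 29.1%), and 24, 15, 16, 7, 3 and 6 with R117fs replicate 4 left out as well (41.3%, 24.3%, 38.5%, 21.2%, 11.8% and 25.5%). Of the 31 genes 7 are 22.6%, so the count in G659fs against R117fs after GC removal lay below the share of all genes. DESeq2 gave 12 in R117fs against GFP and 4 in R117fs against WT (19.3% and 12.9% of all genes). The effective length offset gave 0 in R117fs against WT and 1 in G659fs against R117fs (5.08% and 10.3%). Library totals gave 4 in WT against GFP and 4 in R117fs against WT (21.6% and 8.32%). Over the fits that left out 1 library the counts ran from 10 to 24, 6 to 11, 3 to 15, 0 to 9, 0 to 5 and 1 to 5, beside shares of all genes from 18.0% to 39.4%, 8.56% to 21.7%, 13.1% to 36.0%, 0.589% to 20.7%, 3.69% to 15.4% and 7.79% to 23.5%, and the median log2 fold changes from 0.26 to 0.29, 0.14 to 0.23, 0.14 to 0.21, 0.12 to 0.16, 0.00508 to 0.11 and 0.0464 to 0.10. The median in G659fs against GFP was 0.21 with the length offset and 0.21 with library totals. In G659fs against WT it was 0.0952 with the GC trend removed, 0.0940 when R117fs replicate 4 was also left out, and 0.0959 with the replicate block added. MSMO1 in R117fs against GFP turned to -0.0596 without R117fs replicate 3 and was 0.27 without R117fs replicate 4, and SREBF2 in WT against GFP to -0.00277 with library totals. Library totals also moved the median log2 fold change of all genes in WT against GFP, from 0.00103 to -0.0596. The cause of the 2 turns was not tested.

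Over all genes the replicate numbers paired the samples weakly at most: deviations of same-numbered libraries correlated at -0.0619 to 0.160 over 24 pairs. That does not settle pairing for single genes. INSIG1 was lowest in replicate 1 of every group. Replicate 1 was the lowest library for 14 of the 31 genes in G659fs, 8 in R117fs, 19 in WT and 11 in GFP. In R117fs replicate 4 was lowest for 11, and in GFP replicate 3 for 14. Pairing among the 31 genes was not tested. With the replicate block the counts were 16, 9, 10, 0, 3 and 2 (27.2%, 17.3%, 23.5%, 8.0002%, 10.97% and 16.3% of all genes), and with the block and the GC trend removed 24, 16, 17, 10, 6 and 8 (43.8%, 31.01%, 41.3%, 24.4%, 22.0% and 33.2%). Library totals ran from 20364357 to 46779570 estimated counts, and the effect of depth on the calls was not tested.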
